A study of Drosophila melanogaster with 4 samples.

Results

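The transcripts described here gave a signal well above background in wild type larvae on every array, and on none in larvae mutant for Hdac1. Of the 15003 FlyBase transcripts with a probe on the array, named by identifiers that begin with FBtr, 148 (0.986%) met this rule. Each transcript was represented by its brightest probe over both channels. A member had the scanner's mark for a signal well above background in wild type on all 4 arrays and in the mutant on 0 of 4, with the mark averaged over a probe's spots and taken as on at a mean of 0.5 or more. The members were chosen by the marks of both channels, so their mutant over wild type ratios and levels are given as a description, with no test. The working name of the set, transcripts detected only in wild type, holds for this mark alone. By the scanner's weaker mark, a signal significantly above background, 139 of the 148 members also had a signal in the mutant on at least 1 array.

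Hdac1, also known as Rpd3, is a histone deacetylase: it removes acetyl groups from lysines of histone tails. It works as the catalytic subunit of several complexes, among them Sin3, NuRD and CoREST, which are best known for repressing transcription. In fly larvae it is expressed in many tissues, and it has been found both at silent and at transcribed genes.

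The comparison asked which RNAs differ between larvae with and without normal Hdac1. The wild type was the Oregon-R strain, and the mutant, in the same background, carried the allele Hdac1[303] on one homologue and Hdac1[def8] on the other. All larvae were raised at 25 °C and collected at the 3rd instar, the last larval stage; the labels give no age in hours, sex or number of larvae. Each of the 4 arrays, named as biological replicates, paired wild type cDNA in the green dye with mutant cDNA in the red dye, made from 15 µg of total RNA with an oligo-dT primer. The dyes were never swapped, so genotype and dye cannot be told apart, and all 4 arrays were on 1 slide and in 1 scan. The labels name no dissected tissue, and in such bulk RNA fewer cells of a type and less RNA per cell cannot be told apart.

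None of the 148 members could be paired with a gene name: the scanner files give the transcript number only, and the table of gene names used here named 8 of the 15003 transcripts, 0 of them members. The members are therefore called by transcript number, with no statement on function. No probe could be paired with Hdac1, so the targeted gene was not analysed here. Of 59 marker genes of larval tissues, testis and the sexes 8 could be paired, and 7 of these were well above background in wild type on all 4 arrays. The exception was the imaginal disc gene eya, on 3 arrays in wild type and 0 in the mutant, with a log2 ratio of mutant over wild type of -0.47 ± 0.14 (SD, n = 4). The cuticle gene Cpr60D had -2.24 ± 0.65 and the gut lysozyme gene LysE 2.51 ± 0.47. The neuronal genes Sh, cac and nAChRalpha6 had -0.30 ± 0.23, -0.12 ± 0.06 and -0.51 ± 0.09, the disc gene ptc 0.15 ± 0.20 and the muscle gene Mef2 0.01 ± 0.10. The part of a change in tissue make-up in the members' values was not tested. A list of 12 names around the Hdac1 complexes, in which Hdac1 and Rpd3 are the same gene, had 1 name that could be paired, E(Pc). E(Pc) is best known as a subunit of the Tip60 acetyltransferase complex, and its log2 ratio was -2.71 ± 0.95. By the scanner's marks, 84.8% to 86.5% of spots per array passed this limit in wild type and 84.0% to 86.8% in the mutant, and 0 were saturated.

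The detection limit that chose the members was a sharp one. Signals are given as background-subtracted intensities in scanner units, averaged over a probe's spots. The lowest signal marked well above background was 27.7, 19.1, 35.3 and 21.8 on replicates 1 to 4 in the wild type channel, and 101, 81.9, 115 and 89.8 in the mutant channel. The red channel was the brighter one on every array, with a median signal of 1417 to 1894 against 272 to 455, so each signal is set against the limit of its own channel and array. Relative to the channel's median signal, the limit lay between 6.32% and 7.75% in wild type and between 4.74% and 6.59% in the mutant.

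Most members lay close to the limit in wild type. Their wild type signal was 2.90 times the limit in the median, as a mean of 4 arrays, and 40.7 times at most. Of the 148 members, 38 were under 2 times the limit, 87 between 2 and 5 times, 12 between 5 and 10 times, and 11 at 10 times or more. Among the 13727 transcripts that were well above background in wild type on all 4 arrays, of which the members made up 1.08%, 90 members fell under the 5th percentile of the wild type level, 122 under the 10th and 147 under the 50th. The median wild type level, on the normalised log2 scale, was 7.75 for members and 10.85 for the others.

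**Figure D1:**
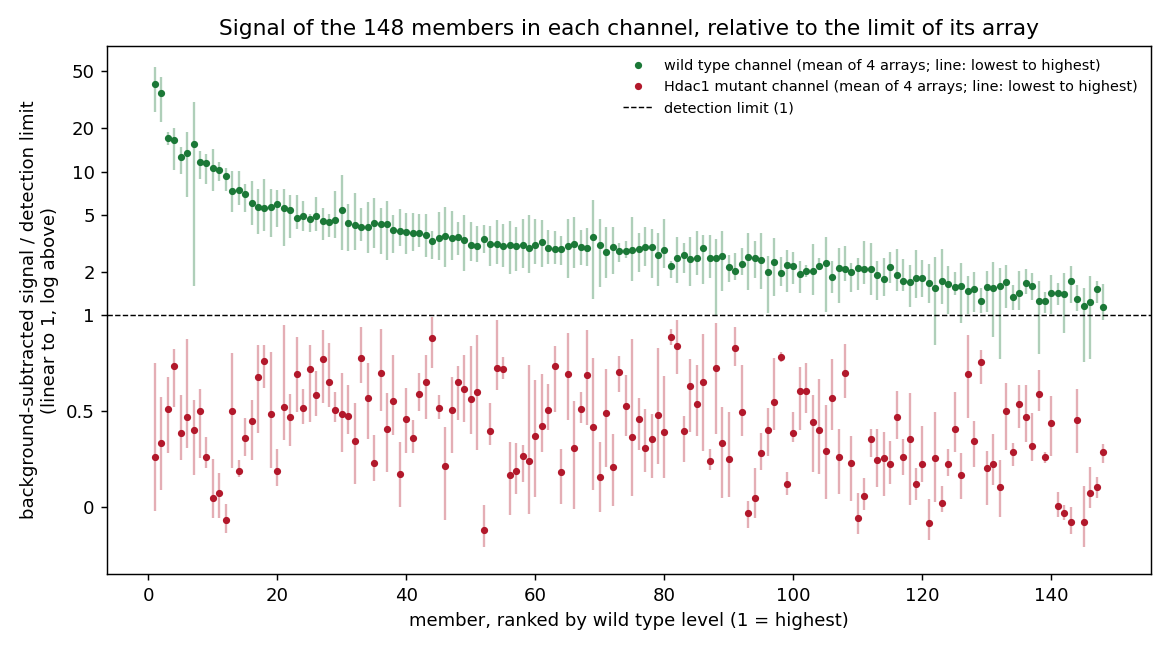
Background-subtracted signal of each of the 148 members divided by the detection limit of its array and channel, ranked along the horizontal axis by wild type level; the vertical axis is linear up to 1 and logarithmic above, points are means of 4 arrays and lines run from the lowest to the highest array. Wild type means run from 1.15 to 40.7 times the limit and mutant means stay under 1, at 88.6% of it or less.

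In the mutant channel most members had a weak signal rather than none. The mean mutant signal was 40.5% of the limit in the median and reached 88.6%. It was at or over 50% of the limit in 53 members and at or over 75% in 9, and it was 0 or less, after background subtraction, in 8. The mutant signal was significantly above background on all 4 arrays in 94 members (63.5%), on 3 in 26, on 2 in 10, on 1 in 9 and on 0 in 9. Of the 477 transcripts that were well above background on no array in either channel, 110 (23.1%) had a significant mutant signal on all 4 arrays. On the single arrays 77.7% to 83.8% of members had a significant mutant signal, against 4.58% to 7.19% of the 153 negative control spots.

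**Figure D2:**
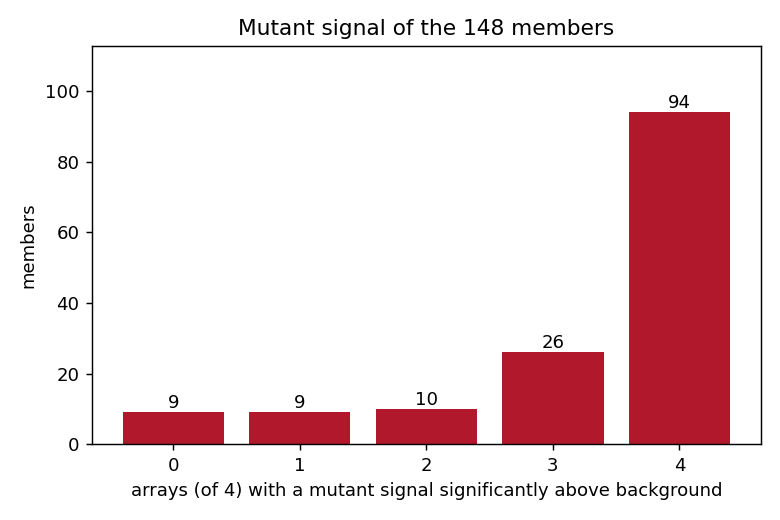
Number of members (vertical axis) by the number of arrays, from 0 to 4, on which the mutant signal was significantly above background. The bar for 4 arrays holds 94 of the 148 members and the bar for 0 arrays holds 9.

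The 9 members with no significant mutant signal on any array were FBtr0076601, FBtr0075573, FBtr0273296, FBtr0304634, FBtr0086597, FBtr0299527, FBtr0076990, FBtr0306680 and FBtr0075711. They come nearest to the working name. The brightest of them, FBtr0076601, had wild type signals of 280, 165, 376 and 255 and mutant signals of -5.86, 6.24, 20.4 and 8.14 on replicates 1 to 4. FBtr0075573 had wild type signals of 277, 183, 375 and 160 and mutant signals of 1.71, -11.0, -15.6 and -1.98. Both were several times over the limit in wild type on every array and near 0 in the mutant on every array. FBtr0273296 was dimmer, with wild type signals of 81.6, 52.2, 134 and 92.2 and mutant signals of -17.4, -17.1, 1.34 and -10.2.

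The ratio of mutant over wild type was below 0 on the log2 scale on all 4 arrays in each of the 148 members, as it was in 39.2% of the 21950 targets tested. The mean log2 ratio had a median of -0.93 over members and ran from -4.58 to -0.14, where the median of all targets was 0.03. It was at or below -1 in 59 members, at or below -2 in 13 and at or below -3 in 3. Such falls were not particular to these transcripts: among the other transcripts well above background in wild type on all 4 arrays, 671 (4.94%) had a log2 ratio at or below -2 and 188 at or below -3. By limma's moderated test over all targets with Benjamini-Hochberg adjustment at 0.05, 147 members were lower in the mutant, where 37.2% of all targets were. At least 2-fold lower were 59 members, where 16.1% of all targets were. Since the rule used this contrast, nothing is read from these counts. The member not called was FBtr0071556, chosen here for that, with wild type signals of 43.0, 25.2, 36.5 and 24.1, mutant signals of 64.8, 64.5, 94.2 and 69.3, and a log2 ratio of -0.14 ± 0.09 (SD, n = 4).

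The mutant signals lay under the limit, so the fitted ratios do not measure the size of a fall and follow the wild type signal. With each mutant value raised, where it lay lower, to the lowest normalised level of any probe well above background on that array, the median fold was 1.90, and 59 members were at 2-fold or more. In 130 of the 148 members this gave back the fitted ratio to within 0.005 on the log2 scale: those lowest levels were 6.17 to 6.35, and the mutant level of members was 6.79 in the median. A stricter bound was chosen after the data were seen. It raised each mutant value, where it lay lower, to the level of a probe at its detection limit. That level was the median normalised level of the 113 to 130 probes within 5% above the limit on each array. In 42 members the mutant level was already over it on at least 1 array, and was kept there. A median over probes is no ceiling for signals under the limit, so the bounds are approximate. By that bound the median member was at least 1.42-fold lower and the highest at least 12.2-fold. At least 2-fold lower were 25 members, at least 4-fold 7 and at least 8-fold 2, while 7 members had no bound above 1. The 11 members at 10 times the wild type limit or more had bounds of 3.54-fold and up, the 12 between 5 and 10 times 1.92-fold to 3.22-fold, the 87 between 2 and 5 times 1.17-fold to 2.04-fold, and the 38 under 2 times at most 1.25-fold. Of the 25 members bounded at 2-fold or more, 18 had a significant mutant signal on all 4 arrays.

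**Figure D3:**
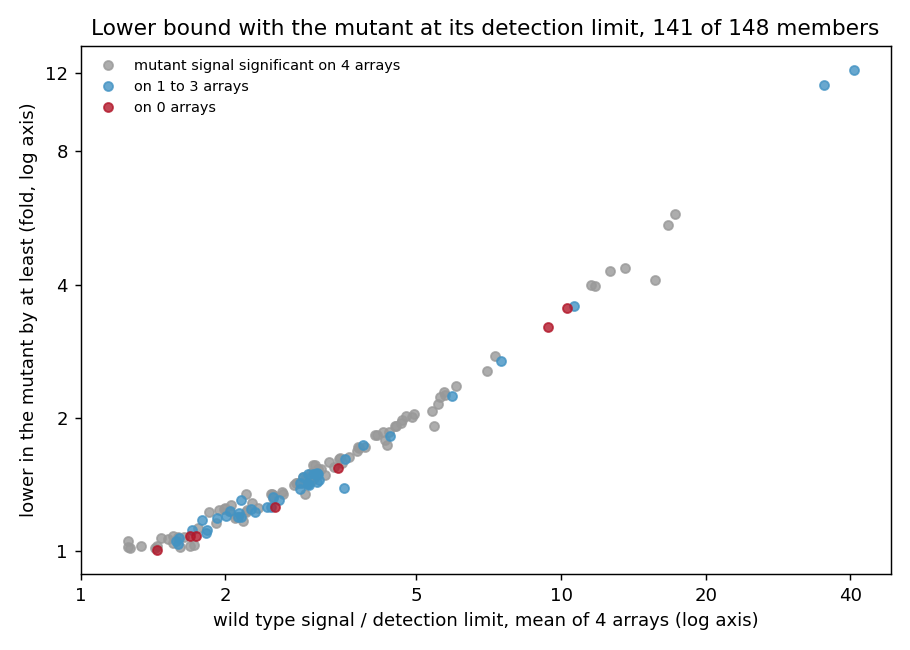
Lower bound on the fall with the mutant at its detection limit (fold, logarithmic axis) against the mean wild type signal over its limit (logarithmic axis) for the 141 members with a bound above 1, coloured by whether the mutant signal was significantly above background on all 4 arrays, on 1 to 3, or on 0. Bounds rise with the wild type signal, by construction, up to 12.2-fold, and 25 members lie at 2-fold or more.

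The 10 members with the highest wild type level were also the 10 with the largest bounds. The bounds below are the stricter ones, with the mutant raised, where lower, to the level at its detection limit. The brightest was FBtr0087488, with wild type signals of 1431, 596, 1901 and 571 on replicates 1 to 4 and mutant signals of 76.3, -1.49, 29.1 and 5.14. Every wild type value was more than 20 times its limit and every mutant value was under its limit, with 1 of them below 0. Its log2 ratio was -4.58 ± 0.78 (SD, n = 4), and by the probe that represents it, it was at least 12.2-fold lower in the mutant. Its further probe, described below, had a ratio nearer to 0, at -2.72. Its wild type level lay at the 51.9th percentile of wild type transcripts, the one member above the middle of that range.

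FBtr0089041 had wild type signals of 1021, 421, 1605 and 801 and mutant signals of 28.6, 7.31, 65.7 and 35.4, with a log2 ratio of -4.27 ± 0.71 (SD, n = 4) and a bound of at least 11.3-fold. FBtr0077529 had wild type signals of 520, 342, 538 and 371 and mutant signals of 47.8, 22.9, 77.9 and 54.9, with a log2 ratio of -3.04 ± 0.34 and a bound of at least 5.79-fold. In both, replicate 2 was the lowest array in each channel, and the normalised levels of the 2 genotypes did not overlap. FBtr0075712 had wild type signals of 493, 196, 655 and 438, and its mutant signals of 83.2, 42.7, 88.2 and 73.9 came nearer to the limit. It was at least 5.47-fold lower.

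FBtr0079660 gave 410, 229, 342 and 309 in wild type against 34.4, 48.1, 28.4 and 33.3 in the mutant, and was at least 4.30-fold lower. FBtr0082792 gave 321, 357, 237 and 376 against 31.1, 31.4, 35.3 and 78.7, and was at least 4.35-fold lower. FBtr0071966 gave 351, 218, 315 and 305 against 62.5, 49.8, 29.5 and 46.3, and was at least 3.98-fold lower. These 3 members were steady in wild type, with no array more than 2 times another, and their normalised levels did not overlap between genotypes. FBtr0087484 gave 353, 253, 288 and 262 against 20.5, 21.6, 24.1 and 32.9, and was at least 4.00-fold lower. FBtr0075586 gave 402, 140, 373 and 221 against 25.5, 3.33, -4.50 and -4.94, and was at least 3.59-fold lower. The mutant signals of FBtr0075586 fell on both sides of 0.

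FBtr0075571 was unlike the other bright members in how far its wild type replicates spread. Its wild type signals were 418, 30.4, 1072 and 338, a 35.3-fold range, and its mutant signals 55.2, 13.9, 64.3 and 30.2. On replicate 2 it was just over the limit of 19.1, while on replicate 3 it was brighter than most members. Its log2 ratio was accordingly -2.24, -0.58, -4.54 and -3.26 on the 4 arrays, -2.65 ± 1.67 (SD, n = 4), and its bound at least 4.09-fold. The wild type level on replicate 2, 7.24, lay under the mutant level on replicate 1, 7.48, so the genotypes overlapped.

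**Figure D4:**
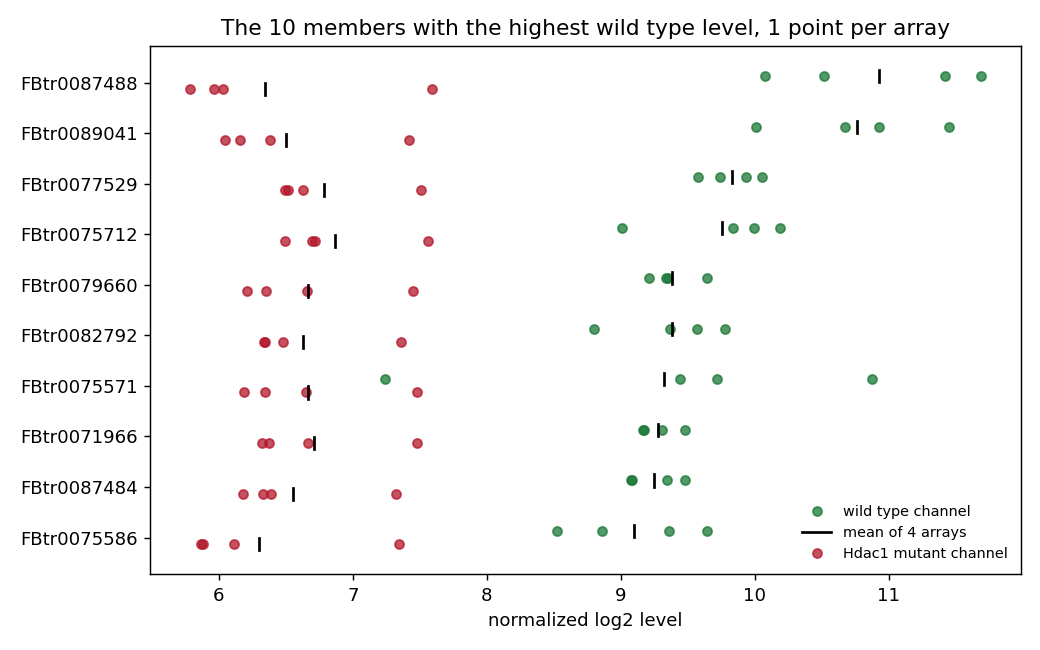
Normalised log2 level (horizontal axis) of the 10 brightest members in wild type (green) and in the Hdac1 mutant (red), 1 point per array (n = 4 per genotype), with the mean marked. The wild type points lie above all mutant points in each of the 10 members except FBtr0075571, where replicate 2 of wild type (7.24) lies among the mutant points.

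Across all members the lowest wild type level was above the highest mutant level in 133 of 148, where the share of all tested targets was 30.8%. In the other 15 the levels of the 2 genotypes overlapped between arrays, though not within any array. The arrays differed in their size of ratio. The median log2 ratio over members was -0.66, -0.76, -1.03 and -1.22 on replicates 1 to 4, and replicate 4 gave the lowest ratio in 101 members. The normalised mutant level had a median of 7.19 on replicate 1 against 6.76, 6.66 and 6.61 on the others, and it was highest on replicate 1 in 145 members. The median mutant signal before normalisation, 39.6, 33.3, 36.3 and 44.7 on replicates 1 to 4, was not the highest on replicate 1. Between pairs of arrays, Pearson's r over the 148 members was 0.833 to 0.921 for the wild type level and 0.855 to 0.938 for the log2 ratio, a description over points that share arrays.

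Wild type levels were otherwise close between arrays. The SD over the 4 arrays had a median of 0.19 on the log2 scale for members, against 0.22 for all transcripts well above background in wild type. It was 0.5 or more in 6 members (4.05%) and in 630 of the other transcripts (4.64%). The 6 were FBtr0075571, FBtr0087488, FBtr0071743, FBtr0075644, FBtr0089041 and FBtr0075712, so 4 of the 10 brightest members were among them. Their lowest array was replicate 2 in 4 of the 6, while in the other transcripts it was replicate 1 in 335 of 630.

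At the edge of the rule, the members with the highest mutant signals were FBtr0088724, FBtr0273216, FBtr0072454 and FBtr0302933. FBtr0088724 had mutant signals of 84.6, 81.4, 111 and 65.3, against limits of 101, 81.9, 115 and 89.8, and a log2 ratio of -0.77 ± 0.23 (SD, n = 4). The ratios of the other 3 were -0.51 ± 0.05, -0.59 ± 0.12 and -0.49 ± 0.09. All 4 came close under the limit on at least 1 array. Just outside, with a mutant mark on 1 array and the lowest mean mutant signals of such transcripts, were FBtr0273227, FBtr0299966, FBtr0071991 and FBtr0079305. Their mean mutant signals were 17.1, 20.7, 27.8 and 30.6, beside 79.8 to 85.6 in the 4 members just inside. Those inside were picked for the highest mutant signals and those outside for the lowest. The gap was thus set by the choice, and nothing is read from it. FBtr0273227 had mutant signals of -7.53, -7.14, 85.7 and -2.64, and 1 array thus kept it out though its other mutant signals were below 0. Its 85.7 on replicate 3, a mean over its spots, was itself under the limit of 115, so not every spot was marked there. FBtr0299966 and FBtr0079305 also had mean mutant signals under the limit on every array, so their marks likewise came from part of their spots. Of the transcripts with wild type on in 4 arrays, 90 had the mutant on in 1, 86 in 2 and 118 in 3, with median log2 ratios of -0.90, -0.87 and -0.76.

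How firmly a member is placed depends on its spots. Of the 148 members, 69 had 1 spot per array, 74 had 2 and 5 had 10. In 21 members at least 1 wild type spot was not marked on some array. With 2 spots, 1 marked spot was enough for wild type to count as on, while the mutant counted as off only with 0 marked. The mean wild type signal of a member could thus lie under the limit on an array, at 0.76 times the limit in the lowest case. The 5 members with 10 spots, named here for that, show the spread within an array. FBtr0080991 and FBtr0085486 had 40 of 40 spots over the 4 arrays marked in wild type and 0 of 40 in the mutant. FBtr0080991 had mean wild type signals of 110, 60.7, 98.6 and 112 and mean mutant signals of 33.0, 37.3, 32.4 and 33.7. FBtr0078344 had 40 marked in wild type and 1 in the mutant, and FBtr0083173 had 40 and 6. FBtr0072454, which is also at the edge of the rule, had 38 of 40 marked in wild type and 11 of 40 (27.5%) in the mutant, so a member with 10 spots could hold single mutant spots over the limit on each array.

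Other probes of the same transcript gave further values. In all, 20 members had 21 further probes, all dimmer than the probe that represented the member, which was chosen as the brightest. They were not used by the rule, yet they come from the same RNA and arrays, so they are described only. Of the 21 probes, 8 had the same pattern, 7 were marked in wild type on 2 or 3 arrays and in the mutant on 0, 4 were marked in wild type on 0, and 2 were marked in the mutant on some array. The mean log2 ratio was below 0 at all 21, with a median of -0.59. Among the 17 probes marked in wild type on at least 2 arrays it was -0.69 in the median, against -1.17 at the probes of the same members that represented them. Keeping probes by their wild type mark favours ratios below 0, and the representing probe is the brightest by rule. Nothing is therefore read from these 2 medians.

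FBtr0073231 was the one member with 3 probes, and all 3 met the rule. The representing probe had wild type signals of 166, 53.8, 138 and 105, and the other 2 had 107, 47.9, 106 and 93.2, and 58.2, 40.3, 100.3 and 67.5. Its log2 ratios were -1.31 ± 0.32, -1.50 ± 0.39 and -1.27 ± 0.40 (SD, n = 4). The mutant signals of the further 2 were below 0 on every array, so these ratios are limited by the wild type signal and the agreement of their size is not read further. The further probe of FBtr0076601 had wild type signals of 32.9, 45.5, 104 and 55.8 and a ratio of -1.11 ± 0.51, beside -2.66 ± 0.58 at the brighter probe. The further probes of FBtr0300768 and FBtr0085260 also met the rule, at -1.21 ± 0.29 beside -1.75 ± 0.45 and at -0.88 ± 0.30 beside -1.17 ± 0.38.

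Other members had probes that differed more. In 4 of them, FBtr0081985, FBtr0113756, FBtr0300022 and FBtr0301038, the further probe was marked in neither channel on any array. At FBtr0301038 its ratio was -0.06 ± 0.14 beside -1.02 at the representing probe. In 2 members the further probe was marked in the mutant. The further probe of FBtr0087488 had wild type signals of 408, 341, 961 and 212 and mutant signals of 51.1, 409, 103 and 49.4, and passed the mutant limit on replicate 2. Its ratio of -2.72 ± 0.94 was below 0 but nearer to 0 than the -4.58 at the representing probe. The bound of at least 12.2-fold given above therefore holds for the representing probe alone. The further probe of FBtr0112560 was dim in wild type, at 28.1, 17.9, 38.3 and 22.0, and was marked in the mutant on 2 arrays, with signals of 55.5, 118, 88.6 and 79.5. Its ratio was -0.01 ± 0.21, beside -1.26 ± 0.42 at the representing probe, where wild type gave 142, 89.3, 179 and 83.0. For FBtr0112560 the fall therefore rests on 1 of its 2 probes.

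**Figure D5:**
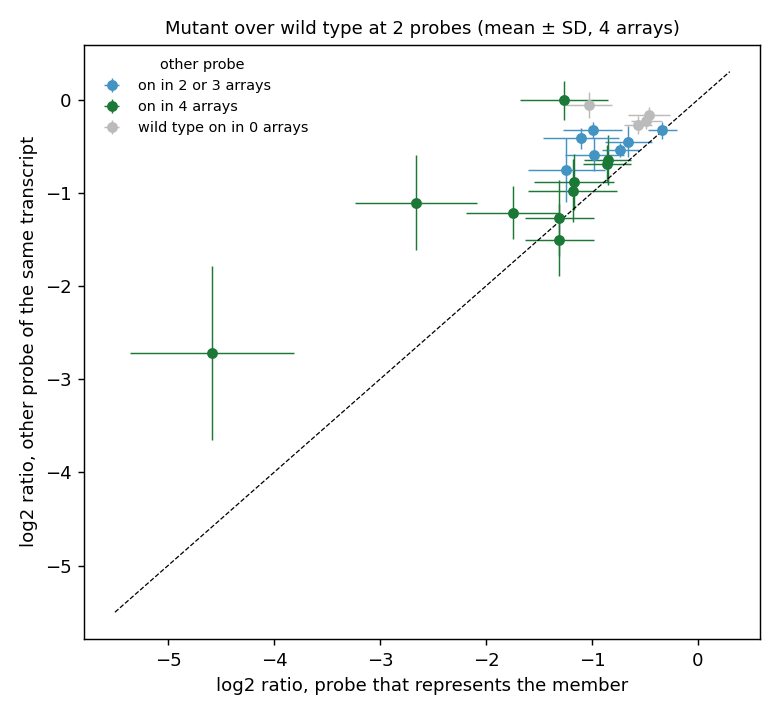
Mean log2 ratio of mutant over wild type at the 21 further probes (vertical axis) against that at the probe that represents the same member (horizontal axis), with bars of 1 SD over 4 arrays, colours for the number of arrays marked in wild type at the further probe and a dashed line of equal ratios. All 21 lie below 0 on the vertical axis, most of them nearer to 0 than the representing probe.

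Some members stood side by side in the transcript numbering. Of the 148 members, 22 (14.9%) had another member within 5 numbers, in 11 groups, against 707 of 13579 (5.21%) of the other transcripts well above background in wild type. Within 1 number the shares were 10 of 148 (6.76%) and 154 of 13579 (1.13%). Whether transcripts of neighbouring numbers belong to 1 gene or to neighbouring genes was not analysed here, and such members need not be independent of each other. FBtr0303784 and FBtr0303785, for example, had log2 ratios of -1.41 ± 0.42 and -1.91 ± 0.45 (SD, n = 4), and FBtr0073836 and FBtr0073837 had -0.85 ± 0.26 and -1.38 ± 0.46. The members named in this paragraph were chosen after their values were seen.

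Of the 10 brightest members 4 were in these groups: FBtr0087484, FBtr0087488, FBtr0075571 and FBtr0075712. FBtr0087484 and FBtr0087488 stood at the ends of a stretch of 5 numbers whose other 3 transcripts were well above background in both channels on all 4 arrays, with log2 ratios of -0.03 ± 0.26, 0.18 ± 0.13 and -1.76 ± 0.21 (SD, n = 4). FBtr0075571 and FBtr0075573 enclosed FBtr0075572, which was marked in both channels on all 4 arrays, with wild type signals of 202, 68.2, 394 and 115 and a ratio of -0.52 ± 0.75. Its wild type signal was lowest on replicate 2 and highest on replicate 3, the order seen in FBtr0075571. Close by in number, FBtr0075586 stood between FBtr0075585, which had a mean wild type signal of 103041 and a ratio of -5.58 ± 0.34, and FBtr0075587, at 1755 and -4.47 ± 0.92, where the mutant was marked on 3 arrays. Both are no members, because their mutant signal was over the limit on most arrays. The mutant signal of FBtr0075586 lay under it, so the size of its fall cannot be ranked against theirs. FBtr0075711 and FBtr0075712, also next to each other, had ratios of -0.91 ± 0.36 and -2.89 ± 0.60. Such falls were not general near members. Neighbours that were no members had a median log2 ratio of -0.10 within 5 numbers and -0.24 within 1 number. The median over all transcripts well above background in wild type on all 4 arrays that were no members was -0.01. Among neighbours well above background in wild type on all 4 arrays, 7.07% of the 707 within 5 numbers had a ratio at or below -2. Within 1 number it was 7.14% of 154. Among all 13579 such transcripts that were no members the share was 4.94%.

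By blocks of the numbering, 31 of the 1611 transcripts whose identifiers begin FBtr03 were members (1.92%), against 0.855% for FBtr007, 0.896% for FBtr008 and 0.868% for the rest. As a share of the transcripts well above background in wild type on all 4 arrays, the values were 2.10%, 0.93%, 0.97% and 0.98% in the same order.

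The mirrored rule, well above background in the mutant on all 4 arrays and in wild type on 0, picked 98 transcripts. Their mutant signal was 2.22 times its limit in the median and 35.4 times at most, with 43 under 2 times and 8 at 10 times or more. Their median log2 ratio was 0.78. The transcripts well above background only in wild type thus outnumbered the mirrored set by count, and both sets lay mostly near the limit. The difference between 148 and 98 was not tested, and with the dyes never swapped it cannot be told apart from a difference in how the 2 channels detect dim probes.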

How the data were processed

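RNA of Oregon-R and Hdac1[303]/Hdac1[def8] larvae was hybridised to 4 Agilent 2-colour arrays. The deposited values are spot intensities from Agilent Feature Extraction 10.5.1.1, per the submitters' processing notes and the file headers, which name the fly build dm3. The submitters' deposited table holds log10 ratios equal within 1e-06 to the scanner's own on all 45109 spots of each array. These arrays have no read depth, and their number limits the precision.

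Each transcript was represented by the probe with the highest mean summed median intensity. For ratios, median intensities were corrected with normexp (offset 50), normalised by loess within arrays with control spots at weight 0, and averaged over a probe's spots; 171 to 269 non-control spots per array marked non-uniform or as population outliers were left out. Channel levels were then scaled with Aquantile for the bounds; the bound at the detection limit was added after the data were seen. With R 4.3.3, limma 3.58.1 (lmFit, eBayes, two-sided) was fitted to the 21950 targets that either channel marked on at least 3 of its 4 arrays, after a test on simulated data, with Benjamini-Hochberg adjustment at 0.05. The spread is between arrays named as biological replicates; the labels do not say how many larvae each held.

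The members and lists were chosen with earlier results of these data known. Named members are the 10 with the highest wild type level, the 10 with the largest bound, the 6 with the most probes (ties by wild type level) and the 4 just inside and 4 just outside the rule (19 members), with others named as chosen for their values. Alternatives changed the marks, the background correction, the normalisation, the filter and the arrays used. No sequences are printed.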

Additional observations from a re-analysis of the deposited data

Results flagged for a closer look

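In 2 of 38 sets of 4 values tested, the wild type levels and log2 ratios of the 19 named members, 1 array stood apart from the other 3 by Dixon's criterion (a gap over 0.829 of the range). Chance alone gives about 1 in 20 such sets, or 1.9 of 38. The log2 ratio of FBtr0088724 was -1.11 on replicate 4 and between -0.69 and -0.63 on the others. The log2 ratio of FBtr0112560 was -1.88 on replicate 3 and between -1.13 and -1.01 on the others. Both were below 0 on every array.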

How the results depend on the processing

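The number of members depended on the mark and on how the rule was applied. From 148 it went to 205 where every spot had to carry the mark for a channel to count as on. This tightens the rule in wild type and loosens it in the mutant, where a probe with only some spots marked then counts as off. The number was 31 with the significance mark in place of well above background. It was 287 with at least 3 arrays on against at most 1, and 234 probes met the rule with every FlyBase probe counted by itself. Leaving out 1 array drops conditions of the rule, so the count can only stay or rise, and it was 166 to 188. The mirrored count of 98 went to 25 with the significance mark and to 198 with at least 3 arrays against at most 1, and was 114 to 125 with 1 array left out. The number of members with a significant mutant signal on all arrays was 94, 69 where every spot had to carry the mark, and 96 to 107 with 1 array left out.

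The median log2 ratio of members stayed below 0 in every setting run. From -0.93 it moved to -1.23 with no background correction, -1.63 with normexp at offset 1, -1.66 with median centring and -2.82 both with the scanner's own log ratio and with the submitters' table. Shifting that scanner ratio by the spike-in controls gave -1.92. With 1 array left out it ran from -0.998 to -0.81. The median of all targets was 0.11 with the scanner's ratio, 1.01 after the spike-in shift of it and 0.13 with median centring. The median bound of 1.90-fold rose to 3.15-fold, and the number bounded at 2-fold or more from 59 to 147, with median centring before Aquantile. With 1 array left out, this first bound gave 1.75-fold to 1.98-fold and 49 to 72. With the mutant at its detection limit, a setting chosen after the data were seen, the values were 1.42-fold and 25. That stricter bound was not rerun with 1 array left out. Members called lower by limma numbered 144 to 148 in all settings run, 144 to 146 with 1 array left out. All targets called lower numbered 8156, 7724 with the scanner's ratio and 3099 with that ratio shifted by the spike-ins, and 7614 to 7840 with 1 array left out. The ratios of the 19 named members were below 0 and past the threshold in all 12 settings run (228 values). Of all members FBtr0071556 alone turned, to 0.11 with the spike-in shift. The scanner's ratio and the submitters' table hold the same values, and the setting with no filter repeats the main ratios, so the settings are not separate checks. Since the rule used this contrast on the same arrays, nothing is read from the signs and calls of members.

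Each array pairs both genotypes, so the ratio on each array is already a paired comparison. All 4 arrays form 1 group, and no further pairing was used. Precision is limited by how near most members lay to the background in both channels. The cause of these differences was not tested.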

Other observations

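The same pattern was present among targets that are not FlyBase transcripts: 127 of 10775 (1.18%) were well above background in wild type on all 4 arrays and in the mutant on 0. Among targets named by clones of the AT series, which come from a testis cDNA library, it was 12 of 145 (8.28%), against 0.909% to 1.91% for the other kinds of target. The labels give no sex for the larvae, and no testis marker gene could be paired, so the share of testis RNA was not tested. AT01380 was the brightest of the 12, with wild type signals of 230, 63.4, 185 and 247, mutant signals of 84.3, 45.9, 31.5 and 61.4, and a bound, with the mutant at its detection limit, of at least 2.39-fold lower.

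Of 209 RefSeq targets 4 had the pattern. asRNA:CR31514, annotated as an antisense RNA, had wild type signals of 74.0, 235, 139 and 260 and a log2 ratio of -2.31 ± 1.10 (SD, n = 4), and was at least 2.50-fold lower in the mutant. lncRNA:CR33987, a long non-coding RNA, had a log2 ratio of -0.54 ± 0.18 and a bound of at least 1.25-fold lower.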
